A study of Homo sapiens with 15 samples.

Results

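GATA2-alone regions are places on the autosomes of TF-1 cells where the transcription factor GATA2 was called in both lines of the study and neither RUNX1 nor cohesin was called in either line. TF-1 is a human erythroleukemia cell line. The first line carried an inducible vector for the truncated RAD21 Q592*, in which the asterisk marks a stop codon, and the other carried the same kind of vector for wild-type (WT) RAD21. Both were kept in medium with cytokines and received doxycycline for 6 days, so the WT cells also express a RAD21 from the vector. The labels do not say whether a line is 1 clone or what its own RAD21 genes make. The measurements are ChIP-seq with antibodies to GATA2, RUNX1 and SMC3, a subunit of cohesin. Of the 15 samples, 11 are ChIP libraries and 4 are inputs. Each line has 2 libraries per target, except that Q592* RUNX1 has 1, so the absence of RUNX1 in Q592* rests on a single library. The deposited files hold 1 pooled list of peaks for each line and target, hence there is no spread between replicates, and no difference between the lines was tested.

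The members were chosen from these calls. Peaks of the 6 lists that overlapped by at least 1 bp were joined into 98804 regions, of which 96158 lay on autosomes. GATA2 had a peak in both lines, and so was called stable, in 32433 autosomal regions. No RUNX1 or SMC3 peak of either line lay in 17734 of these, which is 54.7% (95% Wilson interval 54.1 to 55.2%). Such intervals cover counting error only. The other stable GATA2 regions carried RUNX1 without SMC3 (4562 regions), SMC3 without RUNX1 (4580) or both (5557), each in at least 1 line.

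GATA2 is a zinc finger transcription factor of blood stem and progenitor cells, known for binding GATA motifs at enhancers and promoters of genes of the early blood lineages. At many of its sites in progenitors it is known to be found with other factors, among them RUNX1, which binds its own motif with its partner CBFB. Cohesin is a ring-shaped complex built on RAD21, SMC3, SMC1A and a STAG subunit, which holds sister chromatids together and extrudes chromatin loops. Most of its strong sites are known to be those of the insulator protein CTCF, and weaker ones lie at active enhancers and promoters. Coordinates here are those of hg19, counted from 1, and no gene is assigned to a region, since annotation and sequence of hg19 were not used.

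GATA2-alone regions were the largest of the 4 classes, and in WT cells most regions of this kind were called again in the mutant line. Counting every autosomal region without RUNX1 and SMC3, GATA2 was called in Q592* alone at 21206 regions and in WT alone at 4190. The 17734 members were therefore 45.5% (45.0 to 46.0%) of the GATA2-alone regions of Q592* and 80.9% (80.4 to 81.4%) of those of WT. The Q592* GATA2 list is the longer, with 59009 peaks compared with 38962 in WT, and the part of this in the shares was not tested. At GATA2 regions with RUNX1 or SMC3, 80.2% (79.6 to 80.7%) of the Q592* regions were also called in WT and 95.0% (94.7 to 95.4%) of the WT regions were also called in Q592*. The gap narrowed with strength. In the weakest quintile of WT GATA2 regions by reads at the summit, 58.6% of the GATA2-alone regions and 74.1% of the regions with RUNX1 or SMC3 were called again in Q592*. In the third quintile the values were 92.1% and 94.5%, and in the strongest 98.0% and 99.0%. These calls are what the rule used, and they are given as a description.

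GATA2 was weaker at the GATA2-alone regions than at the other stable regions in both lists. By the authors' values the median fold enrichment of the ChIP pileup over the local background was 5.65 in the Q592* list (lowest 1.30, highest 35.6) and 4.27 in the WT list (1.41 to 22.1). In the Q592* list the regions with RUNX1 had a median fold of 8.43, those with SMC3 6.89 and those with both 12.6. In the WT list these medians were 5.18, 5.11 and 8.24. The median −log10 q of the members was 20.6 in Q592* (quartiles 11.6 and 38.0) and 10.8 in WT (7.13 and 17.5), so many WT calls of members were weak. A −log10 q under 10 was found at 19.4% of the members in Q592* and at 44.7% in WT, compared with 13.5% and 32.5% of all stable regions, members included. At the strong end, 745 members (4.20%) reached 100 in Q592* and 66 (0.372%) in WT, compared with 16.5% and 5.14% of all stable regions. When the 32433 stable regions were ranked by −log10 q within each list, the median member stood at the 35.9th percentile in Q592* and at the 36.4th in WT.

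Not every member was weak. Among the stable regions of the strongest quintile by reads at the summit, 17.2% were GATA2-alone in Q592* and 19.3% in WT, compared with 82.5% and 79.5% of the weakest quintile. The order of the members was less alike in the lines than that of the other classes. Spearman's rho between the −log10 q of Q592* and WT over the 17734 members was 0.685, compared with 0.830 for the regions with RUNX1, 0.825 for those with SMC3 and 0.923 for those with both. By reads at the summit rho was higher, at 0.836 for the members and 0.916, 0.910 and 0.957 in the same order of classes. These values describe regions of the same pools of libraries. Median reads at the WT summit were 43 for members, 63 with RUNX1, 58 with SMC3 and 101 with both. The part of read number in rho was not tested. In −log10 q the members span a narrower range than the regions with both partners. The quartiles in Q592* were 11.6 and 38.0 for members, compared with 49.7 and 203. By percentile among the stable regions the members span a wider range, with quartiles in Q592* of 17.4 and 57.2 compared with 66.1 and 94.3. The GATA2 peaks of the members were also narrow. Taking the width of the GATA2 peak alone, the median was 309 bp in the Q592* list, compared with 403 bp with RUNX1, 383 bp with SMC3 and 541 bp with both. In the WT list it was 233 bp for members, compared with 289, 300 and 432 bp in the same order of classes. The rule uses these extents, and a wider GATA2 peak has more room to overlap a partner. The part of this in the widths was not tested. Exactly 1 GATA2 peak in each line was held by 98.8% of the members, near the 97.5% of all stable regions.

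GATA2 coverage at the members was higher in the mutant line almost throughout. The number of ChIP reads over each summit was recovered from the deposited fold and −log10 p, and divided by the recovered ChIP total in M reads (1 M is 1000000 reads), which was 106 M for Q592* GATA2 and 108 M for WT GATA2. The members had 23 to 928 reads at the summit in Q592*, with a median of 70, and 19 to 793 in WT, with a median of 43. Per M ChIP reads the medians were 0.661 in Q592* and 0.400 in WT. The median log2 ratio of Q592* over WT was 0.71 (quartiles 0.47 and 0.96). Coverage was more than 1.5-fold higher in Q592* at 11372 members (64.1%), while 72.8% of all stable GATA2 regions passed that fold. It was more than 2-fold higher at 3755 members (21.2%), with 28.2% among all stable regions. It was lower in Q592* by any amount at 369 members (2.08%), with 1.44% among all stable regions, and at none of them by more than 1.5-fold, with 0.0% among all stable regions.

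**Figure D1:**
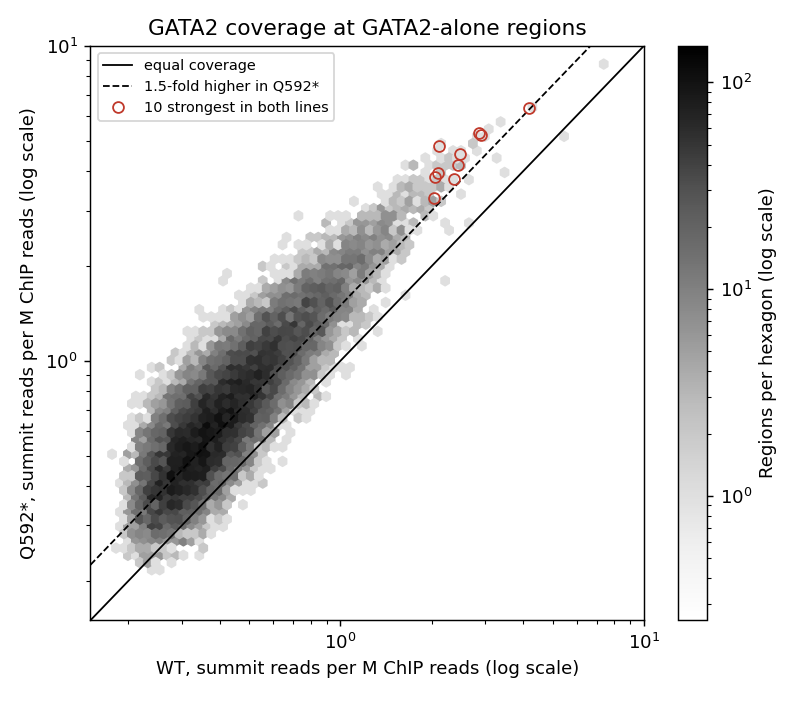
GATA2 coverage at the 17734 GATA2-alone regions, as summit reads per M ChIP reads in Q592* (vertical, log scale) and in WT (horizontal, log scale); the grey level gives the number of regions per hexagon and open circles mark the 10 regions strongest in both lines. The bulk lies above the line of equal coverage, and 64.1% of the regions lie above the dashed line of 1.5-fold.

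The members thus passed 1.5-fold less often than the stable regions as a whole. They are part of that whole, and without them the median log2 ratio of the stable regions was 0.90. Regions with RUNX1 had a median log2 ratio of 0.89, those with SMC3 0.83 and those with both 0.95. A region enters this comparison only with a peak in both lists, so places that fell below the threshold in 1 list are missing from it. By the recovered totals the Q592* pool was also called against a smaller background pool, at 78.0 M reads compared with 95.3 M in WT, and the part of this in the ratio was not tested. These background totals differed between lists of the same line. They were 86.7 M for WT RUNX1 and WT SMC3, 78.0 M for Q592* RUNX1 and 72.6 M for Q592* SMC3. The ChIP totals used in the ratio come from the same recovery.

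Whether the GATA2-alone regions stood below the other classes depended on which line set the strength. Stable regions were split into quintiles by reads at the WT summit, and the members had the lowest median log2 ratio in each quintile. In the weakest WT quintile it was 0.69 for members, 0.87 with RUNX1, 0.78 with SMC3 and 0.84 with both. In the strongest WT quintile it was 0.81 for members, 0.92 with RUNX1, 0.90 with SMC3 and 0.96 with both. Split by reads at the Q592* summit instead, the classes lay close together. The medians were 0.45, 0.50, 0.47 and 0.47 in the weakest Q592* quintile and 0.99, 1.01, 1.01 and 1.01 in the strongest, in the same order of classes. The reads that set the quintile also enter the ratio, and a high value in either line moves a region both between quintiles and in its ratio.

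**Figure D2:**
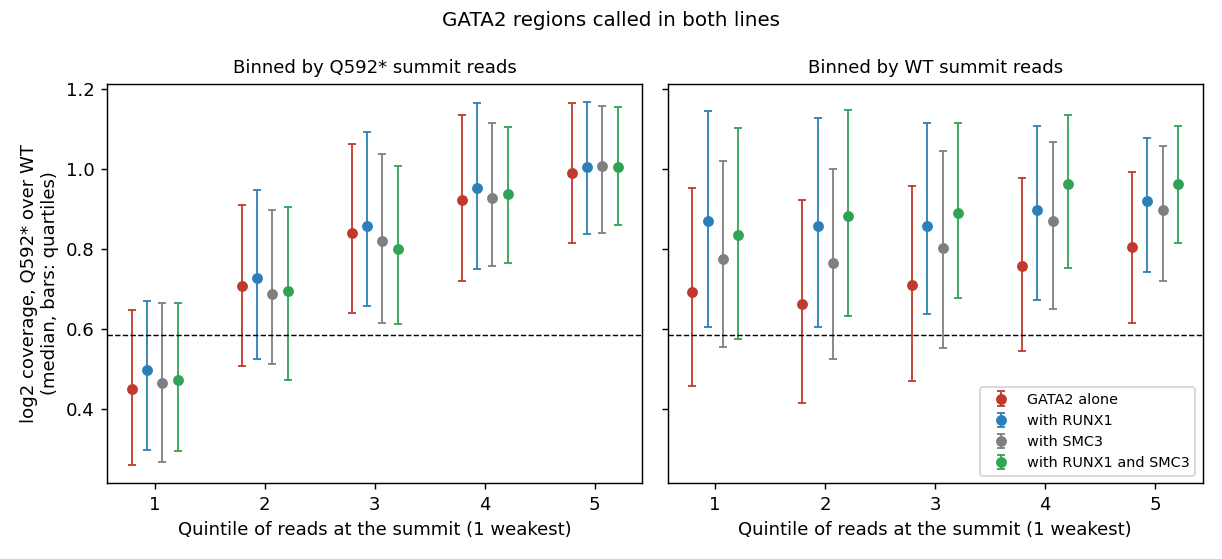
Median log2 ratio of GATA2 summit coverage, Q592* over WT, for stable GATA2 regions in quintiles of summit reads in Q592* (left) and in WT (right); points are class medians, bars the quartiles over regions, and the dashed line marks 1.5-fold. GATA2-alone regions (red) lie below the other classes on the right, with 0.81 in the strongest quintile, and level with them on the left, with 0.99.

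The strongest members had more than 200 reads at the summit in each line. They were taken by the lower of their 2 ranks, at most 1 per 10 kb. The first, on chromosome 17 from 79367665 to 79367998, had 672 reads at the summit in Q592* and 449 in WT, with a fold enrichment of 24.8 in the Q592* list and 11.1 in the WT list. Its log2 ratio per M reads was 0.60, the smallest among the 10 strongest. The nearest SMC3 peak lay 7846 bp away and the nearest RUNX1 peak 158550 bp away. The second, on chromosome 19 from 10727647 to 10728286, had 561 reads in Q592* and 308 in WT (log2 ratio 0.89). The third, on chromosome 5 from 1185875 to 1186301, had 553 reads in Q592* and 313 in WT (0.84). At all 3 the local background was several times the genome-wide value, at 4.19, 5.07 and 4.85 times in Q592* and 6.61, 4.39 and 4.76 times in WT.

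The fourth-ranked member, on chromosome 6 from 10519164 to 10519735, had 481 reads in Q592* and 267 in WT, and its summits in the lines lay 1 bp apart. The widest of the 10, on chromosome 16 from 29954013 to 29955108, had 511 reads in Q592* and 227 in WT. Its log2 ratio of 1.19 was the largest among the 10, and the WT list split it into 2 peaks. The member on chromosome 12 from 73233472 to 73233912, with 417 reads in Q592* and 225 in WT, was the most remote of the 10 by the nearer of the partners: its nearest SMC3 peak lay 161661 bp away and its nearest RUNX1 peak 162883 bp away. A member on chromosome 17 from 41481182 to 41481613 had 406 reads in Q592* and 221 in WT. A member on chromosome 15 from 82559397 to 82560282 had 443 reads in Q592* and 263 in WT, with a RUNX1 peak 4256 bp away. The last pair lay on chromosome 8 from 42426595 to 42427051, with 349 reads in Q592* and 218 in WT, and on chromosome 19 from 40876826 to 40877360, with 401 and 255. The region on chromosome 8 had the highest fold of the 10 in both lists, at 29.1 in Q592* and 21.4 in WT, and the lowest local background, at 1.73 and 1.52 times the genome-wide value. All 10 had more reads in Q592* than in WT.

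The members with the largest ratios were strong in Q592* and weak in WT, while the 3 with the lowest ratios had at most 51 reads in either line. Among the 17733 members with at least 20 reads in both lines, the largest log2 ratio was 2.14, on chromosome 2 from 8487203 to 8487511, with 200 reads in Q592* and 46 in WT. It was followed by a region on the same chromosome from 134728671 to 134728968, with 194 reads in Q592* and 45 in WT (2.13), and by a region on chromosome 16 from 25487648 to 25488243, with 153 and 36 (2.11). By −log10 q they stood at the 84.6th, 83.7th and 82.6th percentile of the stable regions in Q592* and at the 32.2nd, 29.2nd and 33.9th in WT. The local background there was 2.42, 2.39 and 1.32 times the genome-wide value in Q592* and 1.89, 1.89 and 1.13 times in WT. At the other end, a region on chromosome 2 from 192791998 to 192792309 had 27 reads in Q592* and 39 in WT, a log2 ratio of -0.51. Next came chromosome 12 from 89575386 to 89575631, with 26 reads in Q592* and 36 in WT (-0.45), and chromosome 11 from 11037562 to 11037875, with 37 and 51 (-0.44). Over all 369 members with lower coverage in Q592*, reads at the summit had a median of 39 in Q592* (lowest 23, highest 544) and 43 in WT (25 to 573).

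The summits of GATA2 within the members lay close together in the lines, which the rule partly sets. It joins the Q592* and WT peaks of a member by overlap. Their median widths were 309 and 233 bp, which bounds the distance between the summits. The summits of the Q592* and WT peaks lay a median of 22 bp apart (quartiles 9 and 44 bp). They were within 20 bp at 47.5% of the members and within 50 bp at 79.8% (79.2 to 80.4%), and more than 200 bp apart at 292 members (1.65%). In the classes with more reads the summits lay closer: the median was 18 bp with RUNX1, 20 bp with SMC3 and 16 bp with both, and 86.2%, 82.4% and 88.7% were within 50 bp. A summit is placed with fewer reads at the members than in the other classes, and its part in this order was not tested.

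**Figure D3:**
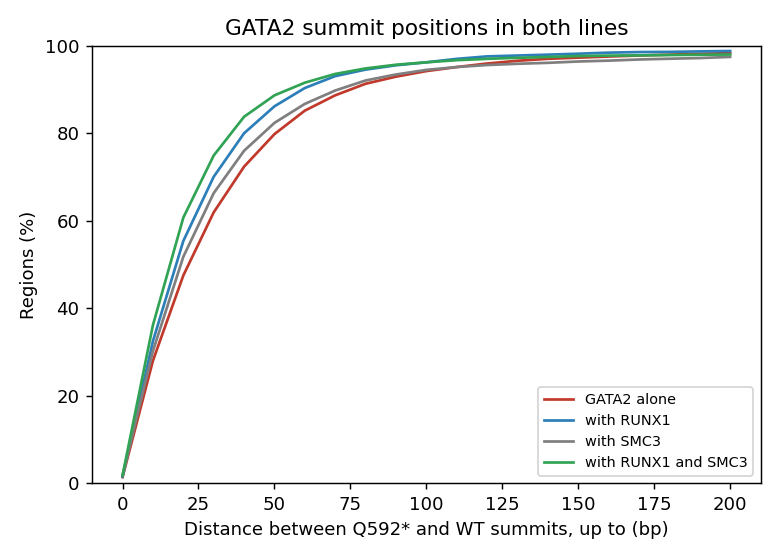
Percentage of stable GATA2 regions whose Q592* and WT summits lie within a given distance (bp), by class. The curve of the GATA2-alone regions reaches 79.8% at 50 bp and lies below the other classes there, with the regions of both partners highest at 88.7%.

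About as many GATA2-alone regions had a cohesin or RUNX1 peak within 10 kb as had none, and most had such a peak within 100 kb. The rule leaves out regions that overlap such a peak, so the closest cases are missing in advance. The nearest SMC3 peak of either line lay a median of 13386.5 bp away by gap between edges (quartiles 4727 and 29638 bp). The nearest RUNX1 peak lay a median of 27659 bp away. The RUNX1 lists are shorter, with 15582 peaks in Q592* and 9603 in WT, compared with 32789 and 42353 for SMC3. The part of list length in these distances was not tested. Within 1 kb, 6.93% of the members had an SMC3 peak and 4.47% a RUNX1 peak. Within 10 kb the shares were 41.7% (41.0 to 42.4%) and 27.6% (27.0 to 28.3%), and within 100 kb 96.5% and 81.9%, and 97.6% had a peak of at least 1 of them within 100 kb. Stable GATA2 regions with RUNX1 had an SMC3 peak within 10 kb at a share of 40.5% (39.1 to 42.0%). Stable GATA2 regions with SMC3 had a RUNX1 peak within 10 kb at 31.2% (29.9 to 32.6%). Either partner lay within 10 kb of 49.7% (49.0 to 50.5%) of the members. Among the regions where GATA2 was called alone in a single line this share was 48.4% (47.7 to 49.1%) for Q592* and 57.4% (55.9 to 58.9%) for WT, so the WT-only regions stood nearer to a partner. Within 100 kb the share was 96.6% for the Q592*-only and 98.5% for the WT-only regions, near the 97.6% of the members.

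**Figure D4:**
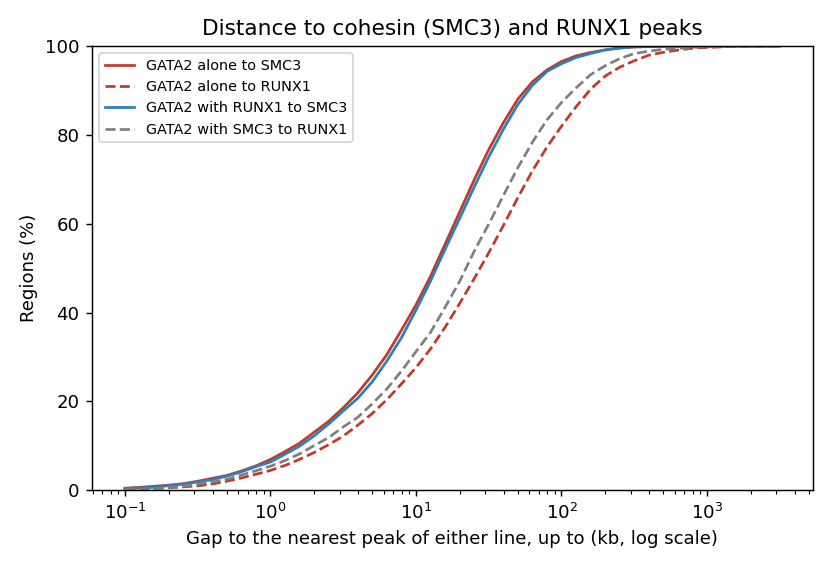
Percentage of regions with a peak of SMC3 (solid lines) or RUNX1 (dashed lines) of either line within a given gap (kb, log scale), for GATA2-alone regions (red) and for the stable GATA2 regions with the other partner. The solid curves nearly coincide, at 41.7% and 40.5% within 10 kb, and the red dashed curve lies below the grey one, at 27.6% and 31.2%.

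The border of the class is set by overlap, and few regions lay on it. The gap to the nearest RUNX1 or SMC3 peak was at most 100 bp for 110 members and at most 10 bp for 12. The closest were 2 bp from a RUNX1 peak, on chromosome 11 from 10765594 to 10766205, and 2 bp from an SMC3 peak, on chromosome 20 from 17876968 to 17877252. The first had 143 reads in Q592* and 64 in WT, and the other 64 and 40. The third, on chromosome 10 from 89686110 to 89686332, lay 3 bp from a RUNX1 peak and had 33 reads in Q592* and 28 in WT. Just outside, 10 stable regions were left out by an overlap of 10 bp or less. A WT SMC3 peak overlapped GATA2 by 1 bp on chromosome 6 from 89203420 to 89204028 (49 GATA2 reads in Q592*, 31 in WT). Another overlapped by 2 bp on chromosome 14 from 52313986 to 52314497 (108 and 51 GATA2 reads). A Q592* RUNX1 peak overlapped by 2 bp on chromosome 6 from 36194322 to 36194737 (80 and 43 GATA2 reads). No call does not show that the partner was absent, since the lists end at a −log10 q of 2.00 to 2.05.

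GATA2-alone regions were spread over all 22 autosomes in similar proportion. They made up between 50.2% of the stable GATA2 regions (chromosome 16, 45.9 to 54.4%) and 58.5% (chromosome 17, 55.2 to 61.8%). Chromosome 6 was the most densely set, with 9.52 members per Mb between its outermost regions, and chromosome 16 the least, with 2.93. The median log2 ratio of coverage was above 0 on each autosome, from 0.66 (chromosome 13) to 0.78 (chromosome 18). It was also above 0 in all 451 windows of 5 Mb that held at least 15 members, from 0.40 to 1.07. The window with the most members lay on chromosome 3 from 170 to 175 Mb and held 133 of them among 249 stable GATA2 regions.

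The chromosome with the lowest median holds a segment, from 75 to 100 Mb of chromosome 13, that was singled out with earlier counts of these lists known. It held 375 members, 15 per Mb, and its share of members among stable GATA2 regions was 56.0% (52.2 to 59.7%), against 57.7% (54.0 to 61.2%) elsewhere on chromosome 13 and 54.6% (54.0 to 55.1%) over the other autosomes. The median log2 ratio of its members was 0.57, against 0.75 elsewhere on chromosome 13 and 0.71 over the other autosomes. Coverage was more than 1.5-fold higher in Q592* at 48.8% (43.8 to 53.8%) of its members, compared with 65.4% (60.6 to 69.8%) and 64.4% (63.7 to 65.2%). The lower ratio was shared by the other stable GATA2 regions of the segment, whose median was 0.78, against 0.92 elsewhere on chromosome 13 and 0.90 over the other autosomes. It was not even along the segment: the median of the members was 0.50 to 0.62 in the 4 windows of 5 Mb up to 95 Mb, and 0.81 in the window from 95 to 100 Mb, which held 52 of the members. Median reads were 66 in Q592* and 45 in WT in the segment, and 61 and 38 elsewhere on chromosome 13. Of the GATA2-alone regions called in WT in the segment, 45.5% were called again in Q592*, against 89.1% elsewhere on chromosome 13 and 82.1% over the other autosomes. This share was not counted for the segment's regions with RUNX1 or SMC3, so it is not shown to be particular to GATA2-alone regions.

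**Figure D5:**
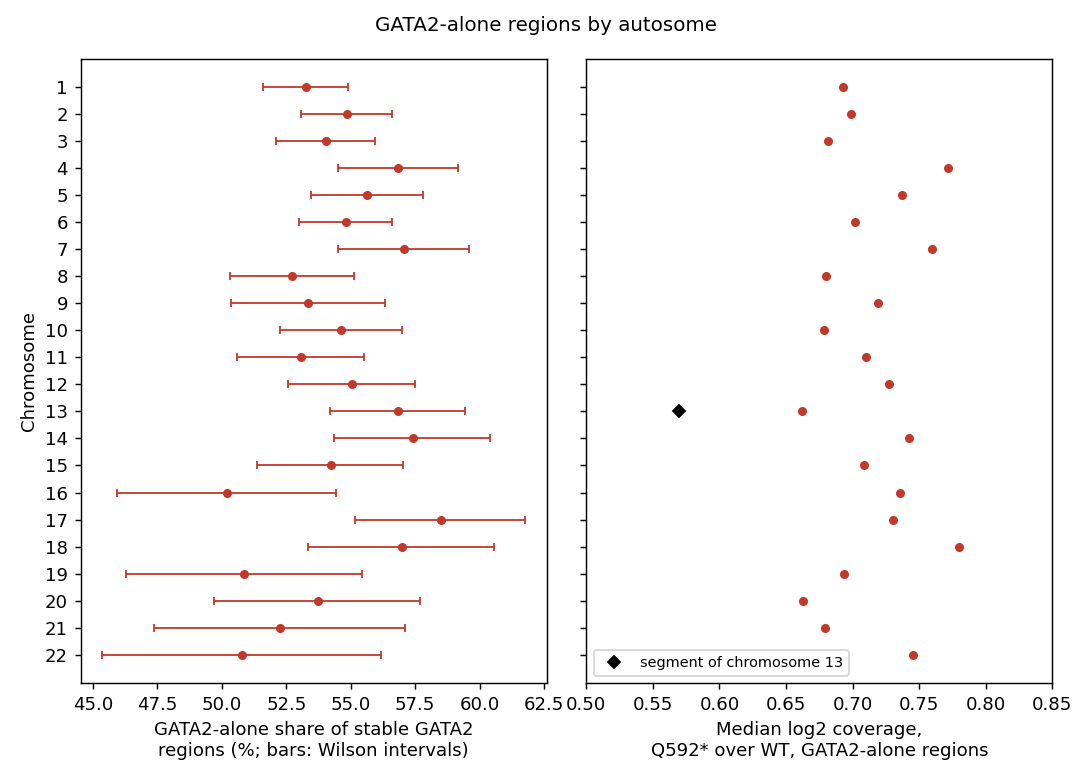
Share of GATA2-alone regions among the stable GATA2 regions of each autosome (left, with 95% Wilson intervals) and the median log2 coverage of GATA2-alone regions, Q592* over WT (right; the diamond is the segment of chromosome 13). Shares run from 50.2% to 58.5%, chromosome medians from 0.66 to 0.78, and the diamond lies at 0.57.

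The spacing of the GATA2-alone regions along the chromosomes was as follows, with no test against an even spread. Neighbouring members were a median of 53.4 kb apart. With gaps of at most 10 kb, 5418 members (30.6%) fell into 2408 runs, and 12316 stood alone. Another stable GATA2 region of any class lay within 10 kb of 46.9% (46.2 to 47.7%) of the members, compared with 44.7% (43.3 to 46.2%) of the regions with RUNX1, 53.2% (51.8 to 54.7%) with SMC3 and 60.0% (58.7 to 61.3%) with both. A GATA2 region called in Q592* only lay within 10 kb of 35.8% (35.1 to 36.5%) of the members and 39.6% (38.8 to 40.4%) of the other stable regions. A GATA2 region called in WT only lay within 10 kb of 10.4% (9.92 to 10.8%) and 12.6% (12.1 to 13.2%).

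Only 25 runs held 5 or more members, and the largest held 9, on chromosome 2 from 143878719 to 143903339, a stretch of 24.6 kb. In order along the chromosome the 9 had 43, 249, 101, 66, 56, 86, 48, 43 and 100 reads at the summit in Q592*. In WT they had 38, 106, 51, 41, 38, 59, 27, 34 and 76 reads in the same order. Reads were higher in Q592* at each of the 9, with log2 ratios per M reads from 0.20 to 1.25. The second member, from 143879373 to 143880182, had both the most reads in each line and the largest ratio. A run of 7 members on chromosome 6 from 87803051 to 87814981, the shortest of the 3 runs of that size, had 34 to 153 reads in Q592* and 29 to 82 in WT, and its median log2 ratio was 0.25, below that of the members as a whole.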

How the data were processed

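ChIP-seq peak lists of TF-1 cells with RAD21 Q592* or WT were used; per the labels' protocols, cells were crosslinked for 10 minutes in 1% formaldehyde, with shearing to an average of 200 to 400 bp. Bowtie2, Picard, MACS2 and hg19 are named in the submitters' processing notes; no version or setting was at hand. The deposited fold enrichment is the ratio of ChIP pileup to local background at the summit, and the deposited −log10 of the p-value and that of the q-value belong to the same summit; each list is taken as 1 pooled call by the authors, since its peak names say merge. Replicate labels therefore give no error.

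Summit reads were recovered from fold and −log10 p, assuming that MACS2 uses whole reads, a pseudocount of 1 and a Poisson background. Whole reads matched the deposited −log10 p within 0.002 for at least 99.998% of the peaks of each list, and for no more than 1.71% after moving the fitted worth of 1 read by 3%. Totals assume an effective genome of 2700000000 bp and a fragment as long as the narrowest peak (157 bp for Q592* GATA2, 150 bp for WT GATA2). The strongest GATA2 peak by −log10 q stands for a region. Recovery, joining and classes were tested on simulated data. The members and lists were chosen with earlier results of these data known. Named regions are the 10 strongest by the lower rank, the 3 largest and 3 smallest ratios with at least 20 reads in both lines, the 3 members nearest to and the 3 regions just outside the rule, and the largest cluster; the other places were chosen after their values were seen. Computation used pandas 2.3.3 and scipy 1.17.1 under Python 3.11.15, and figures matplotlib 3.10.9. A planned share of motifs was not run, since sequence of hg19 was not used here.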

Additional observations from a re-analysis of the deposited data

How the results depend on the processing

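No paired analysis was possible because each list pools its libraries without replicate numbers; for the same reason no library could be left out. The number of members stayed within 1.5 times the reported count under the 6 other settings fixed at the start (13330 to 18131). The median log2 coverage ratio was 0.65 to 0.81 under these and the 3 added ones, which were chosen after seeing the data. Since only 2.08% of the members had a ratio below 0, the sign of this median could hardly change. Adding chromosome X, leaving out chromosome 13 or its segment, and asking for no RUNX1 or SMC3 peak within 500 bp moved no value beyond its counting interval. Raising the lists' threshold to a −log10 q of 10 gave a median −log10 q of 39.7 in Q592* and 19.2 in WT, a median log2 ratio of 0.81, 75.2% past 1.5-fold, summits 17 bp apart and 15014.5 bp to the nearest RUNX1 or SMC3 peak (10064 bp as reported). Equal list lengths gave 27.7 and 13.1, 0.81, 76.0%, 20 bp and 12533 bp. Both leave out weak peaks of the partners as well as of GATA2, with 68623 and 84784 RUNX1 and SMC3 peaks instead of 100327. Regions therefore also enter: 4204 of 13330 and 2911 of 17154 overlapped no reported member. The 9126 and 14243 that did overlap one compare with 17734 reported members, so a similar count does not mean the same regions. Values of the other stable regions under these settings are not given here, so the contrast of the members with them was not checked. A reciprocal overlap of 50% gave 20.9 and 11.3, 0.70 and 21 bp. Added later, coverage over an even spread of the reads, which needs no fragment length, gave 0.65 and 57.1%. On that measure all stable regions, members included, had a median of 0.74 and 66.7% past 1.5-fold. Taking off the local background gave 0.74 for the members. Reads at weak WT summits limit single ratios: the members had a median of 43.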

Other observations

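A few GATA2-alone regions lay where the background itself was very high. At 16 of the 17734 members (0.0902%) the local background was at least 10 times the genome-wide value in both lines, and at 53 of the 14699 other stable GATA2 regions. They were found on chromosomes 3, 12, 15, 18 and 19. The highest, on chromosome 18 from 108107 to 108531, had 544 reads at the summit in Q592* and 573 in WT, with a background of 67.9 and 67.8 times the genome-wide value and a fold enrichment of 1.30 and 1.41. A pair nearby, from 109204 to 109666 and from 110272 to 110852, had 292 and 193 reads in Q592* and 281 and 240 in WT. The member with the most reads of all, on chromosome 19 from 38643577 to 38644012, was among them, with 928 reads in Q592* and 793 in WT (log2 ratio 0.25) and a background of 41.2 and 51.9 times. These places were chosen after their values were seen, places of high background were not filtered out, and a call there need not reflect binding of GATA2.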
